A study of Drosophila melanogaster with 6 samples.

Results

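The steady-state polyadenylated RNA of wild-type Drosophila melanogaster S2 cells is described here from the 3 libraries labelled as wild-type replicates, of 6 libraries in the series. The remaining 3 libraries come from S2 cells in which CG1091 (Tailor), a terminal uridylyltransferase gene, was disrupted, and none of their values was used. The wild-type cells are labelled as Schneider 2 cells of wild-type genotype, with no transgene or treatment named. Trizol was used to extract RNA, and strand-preserving libraries were made from its poly(A)-selected fraction. Whether each wild-type library had its own culture is not in the labels, so the spread between libraries may be technical. Every one of the 14210 genes listed in the gene tables was included. Levels are in FPKM, the authors' number of sequenced fragments relative to transcript length and to the size of the library, so that genes can be compared per length.

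S2 cells are a line established from late Drosophila embryos. They take up particles and make immune effectors much as hemocytes, the macrophage-like blood cells of the fly, do. The line is widely used for RNA interference, immune signalling and chromosome-wide dosage compensation, the process by which male flies raise transcription from their single X chromosome.

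The libraries were close in depth. The FPKM intervals in the files gave back totals of 20896005, 21346155 and 22957816 fragments for replicates 1, 2 and 3. The summed FPKM were 677330, 676301 and 665278. Across 7180 genes that averaged 1 FPKM or more, log2 levels correlated at 0.9962 to 0.9971 between pairs of libraries, a description across genes that are not independent replicates. At most 1 of these genes had the same FPKM in a pair, and fragment counts of genes with 1 transcript differed by more than sampling noise in each pair (chi-square per degree of freedom 3.15 to 5.55). The libraries were therefore counted as 3. A gene listed at exactly 0 may be a failed estimate: the 13 genes of the mitochondrial genome and the 85 genes placed on the unmapped sequence called U were all listed at 0 in every library.

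A gene is called on here when its mean over the libraries reached 1 FPKM. By that level 7180 of 14210 genes were on (50.5%). The single libraries had 7166 to 7185 genes at or above that level, and 7076 genes reached it in every library. Just above the level, from 1 to under 2 FPKM, lay 337 genes, and just below it, from 0.5 to under 1 FPKM, lay 365. Another 3222 genes (22.7%) were listed at 0 in all 3 libraries. "Off" below means a mean under 1 FPKM and not the absence of a transcript.

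The RNA was concentrated in few genes. The 107 genes averaging 1000 FPKM or more held 50.7% of the total FPKM, and 2504 genes held 90% of it. The 25 most abundant genes held 20.8% ± 0.441 of total FPKM (SD, n = 3 libraries). Of these 25 genes, 24 encode cytosolic ribosomal proteins, and the other one is Ef1alpha48D, the translation elongation factor that delivers aminoacyl-tRNA to the ribosome.

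Cytosolic ribosomal protein genes made up 43.5%, 42.9% and 42.0% of total FPKM in replicates 1, 2 and 3, a mean of 42.8% ± 0.774 (SD, n = 3). Of 89 listed genes of this class, 84 were on, and 78 stood at or above 1000 FPKM. Those 78 filled 78 of the first 100 places. They ranged from 1529 to 13194 FPKM, an 8.63-fold range around a median of 3211 FPKM. As a share of fragments, which weights genes by transcript length, the class held 18.4%.

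RpL41, the smallest protein of the large subunit, was the most abundant gene at 13831, 13725 and 12026 FPKM (mean 13194 ± 1013, SD, n = 3). It was lowest in replicate 3. Its span overlaps that of NaCP60E, a sodium channel gene at 3.18 FPKM. RpL39, another very small protein of the large subunit, showed the same pattern at 8035 FPKM in replicate 1, 7858 in replicate 2 and 6908 in replicate 3. RpL5, which carries 5S RNA into the large subunit, stood at 8779.7, 8375 and 8254 FPKM. RpLP1, a protein of the acidic stalk to which elongation factors bind, was lowest in replicate 1, at 7695 FPKM, against 8041 and 8119 in replicates 2 and 3. RpL15, which the files place in the heterochromatin of arm 3L, reached 6121, 5553 and 5598 FPKM. The order of the libraries thus differed between members of the class.

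Of the 11 ribosomal protein genes below 1000 FPKM, all but RpS6 are the lower member of a duplicated pair. RpL34a (538.3 FPKM) and RpS14b (516.2 FPKM) were at intermediate levels. RpS15Ab (30.7 FPKM) and RpS5b (14.4 FPKM) were much lower, and RpL10Aa and RpS28a were listed at 0. RpS6, a single-copy gene of the small subunit and a classic target of growth signalling, was listed at 2.09, 2.82 and 1.59 FPKM. Its mean of normalised counts in the authors' deposited table was 48716, although only 42.7 fragments on average could be recovered from its FPKM interval. The listed FPKM of RpS6 and its count are thus in conflict, and neither was taken as its level.

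**Figure D1:**
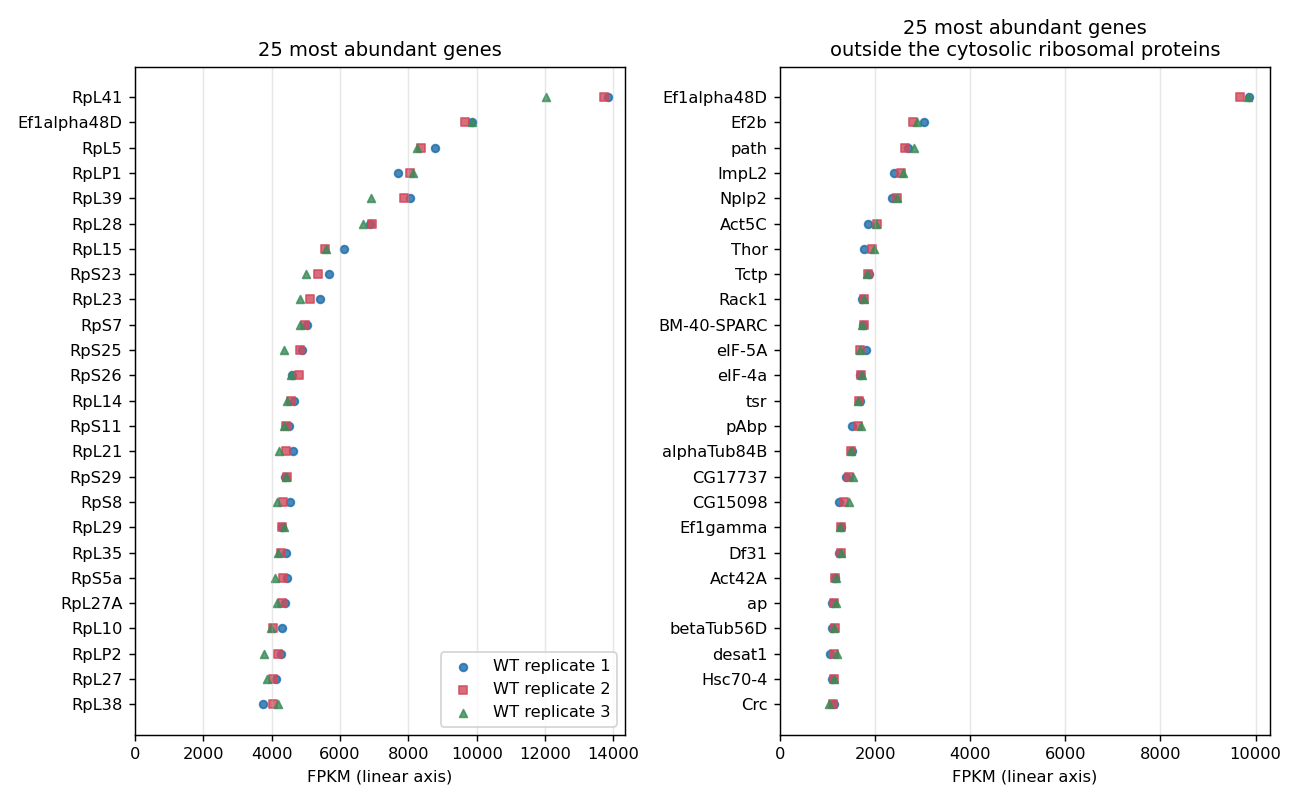
FPKM of the 25 most abundant genes (left) and of the 25 most abundant genes outside the cytosolic ribosomal proteins (right), with 1 point per wild-type library on a linear axis. RpL41 and RpL39 are lowest in replicate 3, and Ef1alpha48D lies within 9670.1 to 9859.7 FPKM.

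Translation factors and tRNA synthetases came next among the function classes, with 5.16% ± 0.0601 of total FPKM (SD, n = 3) and 82 of 90 genes on. Ef1alpha48D stood at 9859.7, 9670.1 and 9849 FPKM, the second most abundant gene, with a counting error of 0.149% and a coefficient of variation of 1.09%. Ef2b, the factor that moves the ribosome along the message, followed at 3022, 2799.6 and 2876 FPKM. Rack1, a scaffold protein of the small subunit, had 1725, 1772 and 1768 FPKM. Together with the ribosomal proteins, this class took up 48.0% of total FPKM.

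Outside protein synthesis, the most abundant genes encode a transporter, secreted proteins, cytoskeleton and growth regulators. They were named after their values were seen, as the most abundant genes that remained without the ribosomal class. Pathetic (path), an amino acid transporter of the lysosome and cell surface, had 2685, 2623 and 2818 FPKM. ImpL2, a secreted protein that binds insulin-like peptides, had 2388, 2547 and 2589 FPKM. Nplp2, a secreted peptide precursor, had 2354, 2455 and 2449.9 FPKM. All of these lay above the cytoskeletal genes.

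Thor, the 4E-BP translational repressor, stood at 1769.7, 1942 and 1975 FPKM and was lowest in replicate 1. Tctp, a growth-associated protein, varied little, at 1863, 1846 and 1824 FPKM. Df31, a chromatin decondensation protein, was at 1246, 1286 and 1275 FPKM. The LIM-homeodomain transcription factor apterous (ap), best known from the dorsal wing, was listed at 1089, 1129 and 1184 FPKM. Apterous was the only DNA-binding transcription factor gene among the 25 most abundant genes outside the ribosomal class.

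The share of total FPKM by function class fell steeply after protein synthesis. Cytoskeleton and motility genes held 2.17% ± 0.0532, with Act5C (1967 ± 105 FPKM), a cytoplasmic actin, the cofilin gene tsr (1663 ± 15.4 FPKM) and alphaTub84B (1497 ± 13.1 FPKM). Nuclear genes of oxidative phosphorylation held 1.75% ± 0.0126, led by CG1746, which the gene name table calls ATPsynC, at 821.2 ± 23.3 FPKM. Matrix, adhesion and secreted blood cell proteins held 1.71% ± 0.0441. Each value is a mean with the SD over 3 libraries. The order depended on the weight: of fragments, the matrix class held 3.10%, cytoskeleton 2.64% and oxidative phosphorylation 0.905%.

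Protein folding and traffic formed a further group of classes. Chaperones and folding enzymes held 1.57% ± 0.00601 of total FPKM, led by the constitutive chaperone Hsc70-4 (1121 ± 17.5 FPKM), the calreticulin gene Crc (1095 ± 55.8 FPKM) and the disulfide isomerase ERp60 (773.1 ± 21.1 FPKM). Secretory pathway genes held 1.53% ± 0.0270, with 85 of 94 on. Lysosomal and proton pump genes held 0.912% ± 0.0256, led by the cathepsin L gene Cp1 (837.4 ± 9.58 FPKM). Proteasome and ubiquitin genes held 0.661% ± 0.00290. Lamp1, a membrane protein of the lysosome, had 642.7, 693.1 and 761.7 FPKM.

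The nutrient and lipid classes are short lists, chosen with earlier results of these data known, and do not cover all genes of these functions. The 15 genes of amino acid transport and the starvation response held 1.24% ± 0.0462, and 14 were on. Besides path and Thor this class includes crc, the Drosophila ATF4 transcription factor, at 943.1, 968.0 and 1013 FPKM. The 14 lipid synthesis genes held 0.568% ± 0.0171, with the fatty acid desaturase desat1 (1124 ± 67.4 FPKM), the lipid carrier fabp (630.9 ± 15.1 FPKM) and the SREBP gene HLH106 (526.8 ± 6.92 FPKM). Of fragments the lipid class held 1.097%. The 13 glycolytic genes held 0.306% ± 0.00221, led by enolase (Eno, 415.7 ± 6.99 FPKM). These 13 genes thus took a smaller summed share than the 94 nuclear oxidative phosphorylation genes. Per gene the order was reversed, with a class median of 126.5 FPKM for glycolysis and 79.6 FPKM for oxidative phosphorylation.

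Redox genes held 0.701% ± 0.00211, and 0.444% of fragments, led by Fer1HCH, the ferritin heavy chain, at 987.9, 994.1 and 1000.7 FPKM. Its partner Fer2LCH, the ferritin light chain, whose span overlaps that of Fer1HCH, had a mean of 11.9 FPKM, was highest in replicate 3 at 13.8 FPKM, and is named after its value was seen. The authors' deposited table gave Fer1HCH a mean normalised count of 26938 and Fer2LCH one of 261.2. The sources used here do not say how reads in overlapping genes were counted.

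All 75 mitochondrial ribosomal protein genes were on and held 0.408% ± 0.00309, and all 28 nucleolar genes were on and held 0.426% ± 0.00717. Histone genes held 0.327% ± 0.00541, and 4 of 116 were on. Of fragments the mitochondrial ribosomal proteins held 0.226% and the histones 0.186%. Replication-dependent histone messages lack a poly(A) tail, and these libraries were poly(A)-selected. The part of that selection in the low histone values was not tested. The abundant histone genes were replacement histones: His4r at 966.8 ± 30.6 FPKM, His3.3B at 684.5 ± 34.3 FPKM and His2Av at 360.7 ± 5.37 FPKM. Genes in no class, 20.3% of total FPKM under a name and 15.6% under a CG number, are the remainder.

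**Figure D2:**
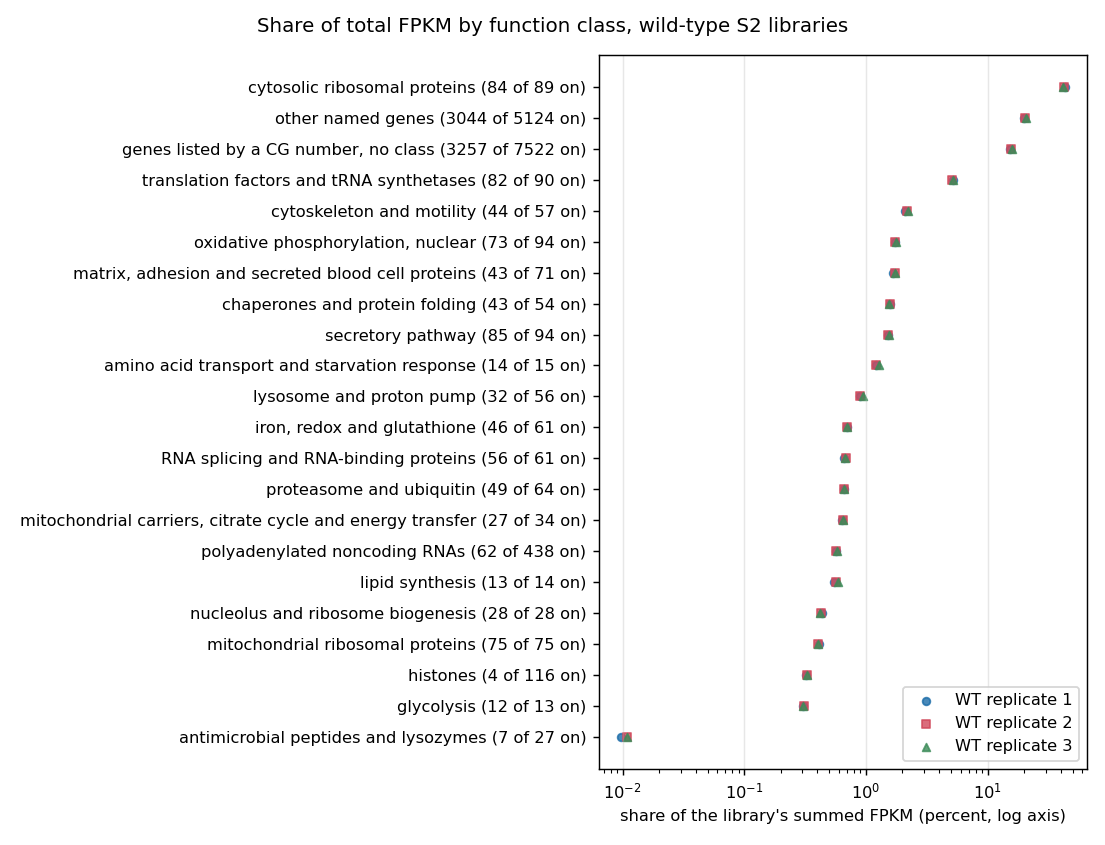
Share of each library's summed FPKM (percent, log axis) by function class, with 1 point per wild-type library and the number of genes on after each class name. Cytosolic ribosomal proteins lie at 42.0% to 43.5%, and the 3 points of most classes fall on top of each other. The mitochondrial genome, listed at 0, is left out.

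Hemocyte genes were on in part. Of 18 listed hemocyte markers, 11 were on (61.1%, beside 50.5% of all listed genes). Serpent (srp), the GATA factor of blood cell fate, was at 52.8, 64.2 and 59.1 FPKM. Pvr, the receptor for PDGF- and VEGF-like ligands that hemocytes need to survive, was at 211.4, 216.1 and 211.1 FPKM. Hemolectin (Hml), a clotting protein and the usual marker of larval hemocytes, was at 0.417, 0.398 and 0.379 FPKM and so off. Of these 3 defining markers, 2 were on in every library.

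The most abundant members of the hemocyte list besides Pvr included matrix proteins and an uptake receptor. BM-40-SPARC, a collagen-binding matrix protein, had 1747, 1756 and 1719 FPKM. Cg25C and vkg, the 2 chains of type IV collagen, averaged 321.9 ± 77.8 and 252.1 ± 52.4 FPKM. The scavenger receptor croquemort (crq), which binds dying cells, had 223.4, 217.8 and 229.7 FPKM. The engulfment receptor drpr averaged 47.1 ± 1.79 FPKM. The matrix peroxidase Pxn was lower, at 3.12 ± 0.195 FPKM, and hemese (He), a general hemocyte surface marker, was off at 0.584 ± 0.253 FPKM. Other uptake receptors were low: eater averaged 2.59 ± 0.0398 FPKM, Sr-CI 0.135 ± 0.0760 FPKM and nimC1, a phagocytosis receptor, 0.0282 ± 0.0314 FPKM. Here and below, markers other than the supplied cell markers, the 4 most abundant of a list and those listed at 0 were named after their values were seen.

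Markers of the other blood lineages were split. None of 4 crystal cell markers was on. The highest of them was proPO-A1, a prophenoloxidase of the melanin pathway, at 0.388 ± 0.156 FPKM, and the second prophenoloxidase CG8193 was listed at 0. Of 4 lamellocyte markers 3 were on, a larger share than the 61.1% of the hemocyte list and the 50.5% of all listed genes, though over only 4 genes. The actin-crosslinking filamin cher had 36.3 ± 1.03 FPKM, the lamellocyte prophenoloxidase PPO3 (CG42640) 6.54 ± 0.370 FPKM and the integrin alphaPS4 1.77 ± 0.283 FPKM. Atilla (atilla), the standard surface marker of lamellocytes, was listed at 0 in all libraries, and filamin is also made in many other cells.

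The dosage compensation machinery of male cells was on except for one of its RNAs. Msl-2, the male-limited subunit that is repressed in females, was at 27.3, 28.6 and 29.4 FPKM. The partner subunits msl-1, msl-3, mle and mof averaged 19.2 ± 0.808, 19.7 ± 0.302, 24.3 ± 0.162 and 22.3 ± 0.414 FPKM. The subunits thus lay within a narrow band of levels. Clamp (CG1832), the zinc finger protein that brings the complex to X sites, averaged 63.8 ± 2.82 FPKM.

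The complex contains either of 2 noncoding RNAs that can replace each other in flies, and they differed widely here. RoX2 (roX2) stood at 261.8, 266.1 and 261.6 FPKM. RoX1 (roX1) stood at 0.378, 0.406 and 0.340 FPKM, which is off. Every library had roX2 far above roX1. The authors' deposited table gave mean normalised counts of 3040 for roX2 and 27.4 for roX1, which is the same order.

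Most sex determination genes were on. Of 10 listed genes, 7 were on (70%, beside 50.5% of all listed genes). Sxl, the splicing switch whose functional protein is made in females, had 41.5, 40.5 and 43.7 FPKM. Its target tra had 12.2 ± 0.917 FPKM and the partner tra2 had 39.9 ± 2.07 FPKM. These genes are transcribed in both sexes and act through sex-specific splicing, which gene-level values do not show. The yolk protein genes Yp1, Yp2 and Yp3, made in adult females, were off, at 0.00935, 0.102 and 0.371 FPKM. Of 11 listed Y-linked genes, 8 were matched, including the fertility factors kl-2, kl-3 and kl-5, and all were listed at 0. The files place 6 of these 8 genes on the Y heterochromatin, where 1 of the 7 listed genes had a value above 0, at a mean of 0.135 FPKM. Pp1-Y1 lies on U and ARY on the heterochromatin of 3L. These are RNA levels, and whether the cells carry a Y chromosome was not tested.

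The X chromosome had more of its genes on but a lower median level. On the X, 1246 of 2210 genes were on (56.4%), beside 5849 of 11741 (49.8%) on arms 2L, 2R, 3L and 3R. Among genes that were on, the X median was 17.2 FPKM and that of these autosomal arms 22.8 FPKM. On the log2(FPKM + 1) scale the X minus autosome difference was -0.42, -0.37 and -0.39 in replicates 1, 2 and 3 (mean -0.39 ± 0.027, SD, n = 3). The spread between libraries was small beside that difference. Without a filter on level the sign turned, to 1.27, and 16.9% of X genes were listed at 0 in all libraries, beside 21.01% to 26.7% of genes on the 4 autosomal arms.

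The lower X median came with fewer genes at high levels. Genes from 1 to under 10 FPKM were 30.2% of X genes that were on and 23.9% of autosomal ones. Genes from 100 to under 1000 FPKM were 8.59% of those on the X and 10.9% of those on the autosomes. The 4 autosomal arms had medians of 21.8 to 24.7 FPKM, all above the X. What the ratio says about compensation was not tested, since the copy number of each arm in these cells is not in the files.

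The small chromosome 4 stood at the other end. Of its 85 genes, 52 were on (61.2%), with a median of 46.3 FPKM, and its log2 difference from the 4 autosomal arms was 0.99 ± 0.074 (SD, n = 3). Its most abundant gene was RpS3A, a small subunit protein, at 3369 FPKM. Its median was 45.3, 45.1 and 49.4 FPKM in replicates 1, 2 and 3. Genes that were on in the heterochromatic parts of arms 2 and 3 also had their highest median in replicate 3, for example 62.4, 65.7 and 74.3 FPKM for 10 genes on 2RHet. The other parts of these arms had only 2 to 9 genes on. On XHet, with 7 genes on, the median was highest in replicate 1, at 5.58, 4.68 and 4.79 FPKM.

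**Figure D3:**
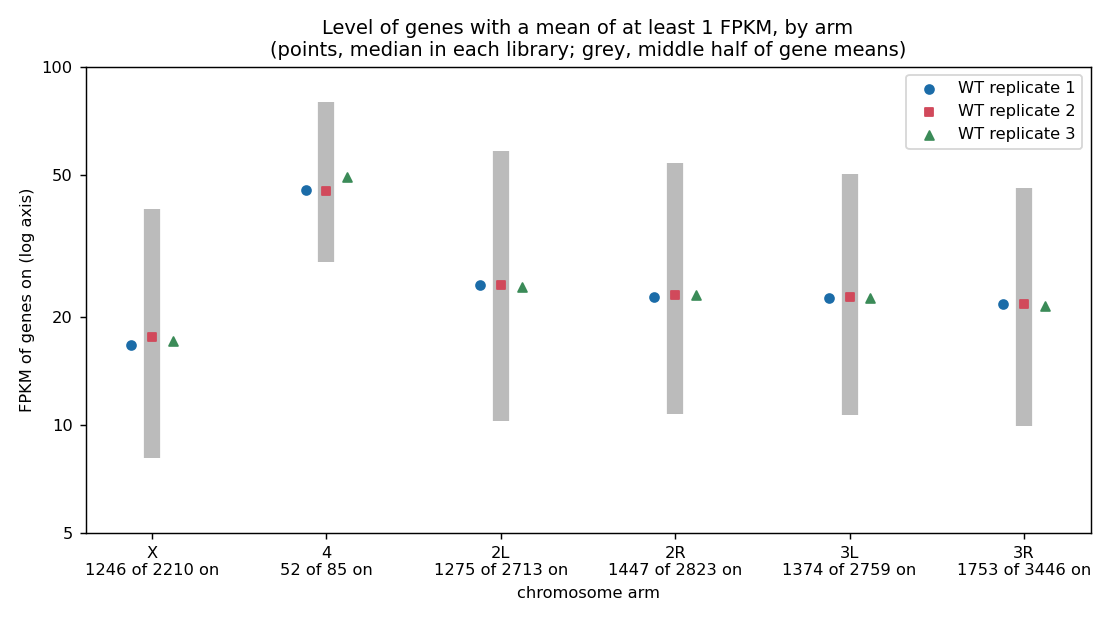
Level in FPKM (log axis) of the genes that were on, by chromosome arm, with the median in each wild-type library as a point and the range from the lower to the upper quartile of gene means in grey. Each X median (16.8 to 17.6 FPKM) lies below all medians of 2L, 2R, 3L and 3R, and chromosome 4 lies above them at 45.1 to 49.4 FPKM.

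Markers of other tissues were mostly off. Over 13 lists for germline, testis, egg shell, nerve, glia, muscle, fat body, gut, trachea, epidermis, eye and body pattern, 23 of 114 genes were on (20.2%, beside 50.5% of all listed genes), and 30 were listed at 0. Their median was 0.0436 FPKM, beside 1.16 FPKM over all listed genes. Only 5 of the 114 reached 10 FPKM. The lists and the counts describe these libraries and carry no test.

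The fat body, gut, egg shell and Hox lists had no member on. None of the 8 genes in the fat body list was on, and Lsp1alpha and Lsp2, which encode larval storage proteins, were listed at 0. That list also counts Acp1, an adult cuticle protein gene and no fat body marker, which was listed at 0. None of the 10 gut markers was on, the highest being mex1, an enterocyte gene, at 0.879 ± 0.315 FPKM, which passed 1 FPKM in replicates 1 and 2. None of the 5 egg shell markers was on, though in the wider family of 15 chorion and vitelline genes 1, Cp18, averaged 1.17 FPKM. None of the 8 Hox genes, which set segment identity, was on, with Antp highest at 0.0349 FPKM and lab, pb, Dfd and Ubx at 0.

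The markers of these lists that were on came from several lists. Hairy (h), a pair-rule repressor with later roles in growth, was at 243.6, 277.8 and 296.8 FPKM, while 10 of 13 segmentation genes were off and Kr and ftz were listed at 0. Twist (twi), a mesoderm factor, was at 47.2, 50.5 and 51.4 FPKM, and its partner in early mesoderm, sna, was listed at 0. Mef2, the muscle differentiation factor, averaged 9.16 ± 0.382 FPKM. The other 12 muscle markers were off.

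Nerve, glia, eye and skin lists had isolated members on. In the nerve list elav, a neuronal RNA-binding protein, averaged 8.23 ± 0.520 FPKM and the synaptic scaffold gene brp 7.72 ± 1.45 FPKM, with the other 8 members off. In the glial list moody, a receptor of the blood-brain barrier, averaged 17.3 ± 0.905 FPKM, and the glial master gene repo was at 0.00516 FPKM. In the eye list the phospholipase C gene norpA, used in phototransduction, averaged 15.1 ± 0.968 FPKM. The rhodopsin gene Rh4, whose span overlaps sina, was on at 1.52 ± 0.256 FPKM. Grainy head (grh), an epidermal transcription factor, averaged 13.9 ± 1.43 FPKM, and the cuticle genes Lcp1, Lcp2, Lcp4 and Edg84A were listed at 0.

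Germline genes were low. Of 10 listed genes 6 were at or above 1 FPKM, near the 50.5% of all listed genes, and 1 was at or above 5 FPKM, the germ cell fate gene gcl at 6.36 ± 0.442 FPKM. The germ cell genes vas, nos, bam and otu were off, at 0.0357, 0.0957, 0.128 and 0.0107 FPKM. The small-RNA genes aub, AGO3 and piwi, which silence transposons in the gonad, averaged 2.95 ± 0.195, 1.69 ± 0.0438 and 1.02 ± 0.175 FPKM. Piwi was below 1 FPKM in replicates 1 and 2 and above it in replicate 3. Testis genes were rarer, with 2 of 9 on, bol at 2.89 ± 0.277 FPKM and twe at 2.10 ± 0.219 FPKM, both meiotic regulators.

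**Figure D4:**
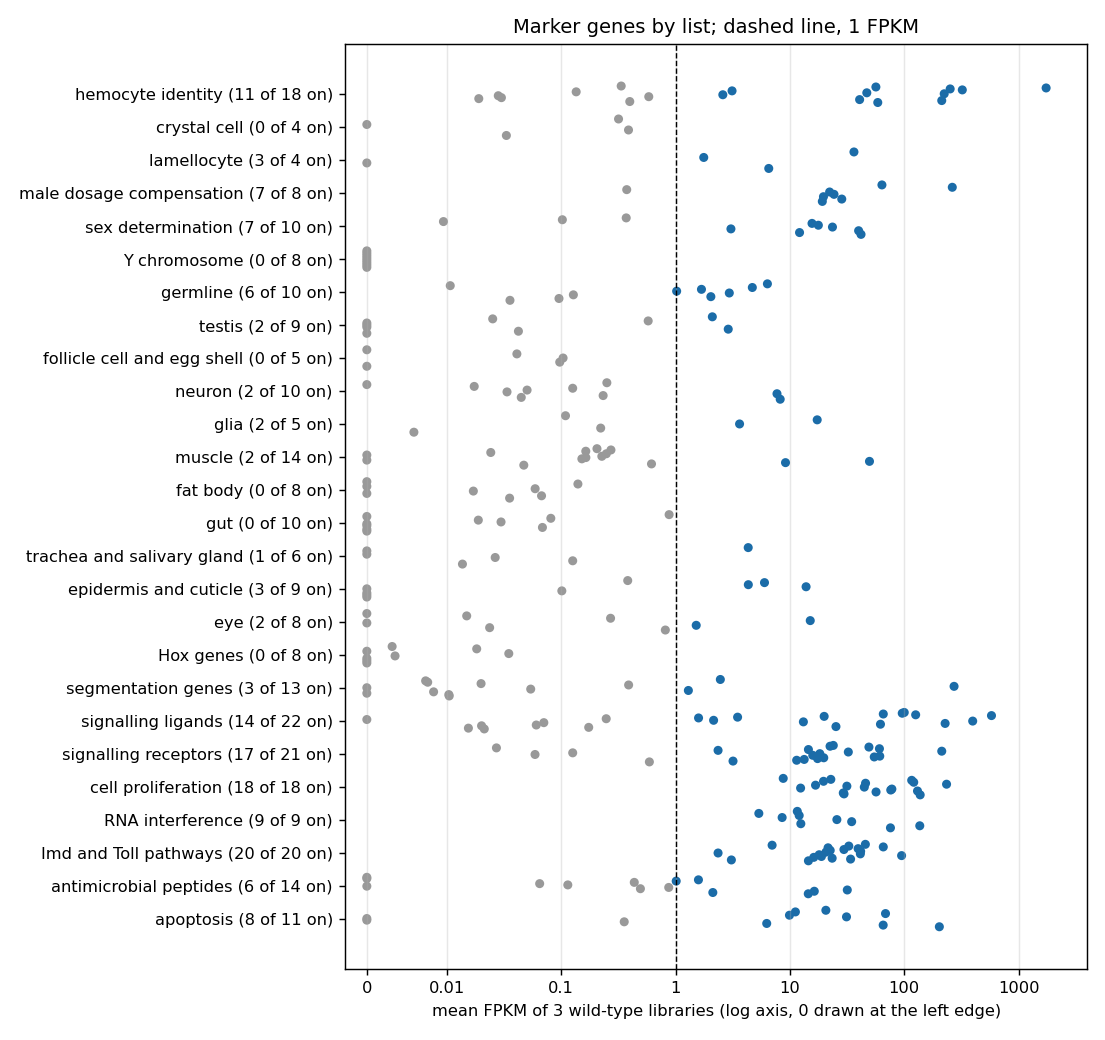
Mean FPKM over the 3 wild-type libraries (log axis, with 0 drawn at the left edge) for each matched marker gene, with 1 row per list. Blue points are at or above 1 FPKM and grey points below it. Every member of the cell proliferation, RNA interference and Imd and Toll lists is on, and every Y chromosome gene is at 0.

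Signalling genes showed both ends of some pathways and only one end of others. Of 22 listed ligands 14 were on (63.6%), and of 21 receptors 17 (81.0%), beside 50.5% of all listed genes. Pvf2, a ligand of Pvr, was the highest ligand at 553.6, 589.6 and 594.8 FPKM, and Pvf3 followed with 124.9, 129.7 and 123.1 FPKM. The receptor Pvr was itself the highest receptor (212.9 ± 2.78 FPKM). Ligand and receptor of this pathway were thus present together in all libraries.

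For the epidermal growth factor pathway the ends differed. Spitz (spi), the main ligand, was at 384.3, 390.3 and 415.9 FPKM, and its receptor Egfr was off at 0.0401, 0.0798 and 0.0574 FPKM. For the activin branch, the ligand daw had 226.9, 223.4 and 233.2 FPKM, and its receptor subunits babo and put averaged 61.1 ± 3.54 and 54.7 ± 2.18 FPKM. Among receptors the tumour necrosis factor receptor wgn averaged 60.7 ± 4.23 FPKM, whereas the related receptor grnd (CG10176) was off at 0.0272 FPKM. The ligand egr that both can bind averaged 96.1 ± 2.03 FPKM. The developmental ligands wg, hh and dpp were off, at 0.0213, 0.0201 and 0.0606 FPKM, and of the JAK/STAT ligands os (upd) was listed at 0, upd2 was off at 0.248 FPKM and upd3 was on at 1.59 ± 0.120 FPKM. 

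Genes of the cell cycle were on as a set. All 18 listed proliferation genes were on, beside 50.5% of all listed genes. Their median was 45.3 FPKM, beside 1.16 FPKM over all listed genes. String (stg), the phosphatase that triggers mitosis, was at 223.7, 230.8 and 249.0 FPKM. The replication clamp gene mus209 (PCNA) was at 132.9, 139.3 and 141.5 FPKM. The small ribonucleotide reductase subunit RnrS averaged 130.6 ± 7.22 FPKM and the mitotic kinase polo 121.1 ± 2.69 FPKM. The lowest of the 18 was fzr (listed as rap), an anaphase activator, at 8.75 ± 1.17 FPKM.

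Apoptosis genes split by role. The inhibitors th (Diap1) and Iap2 averaged 202.8 ± 4.03 and 65.4 ± 2.64 FPKM. The caspases Ice and Nc averaged 68.6 ± 1.97 and 31.3 ± 0.749 FPKM. Of the death inducers, rpr averaged 6.27 ± 0.169 FPKM, W (hid) was off at 0.356 FPKM, and grim and skl were listed at 0. Of 11 genes in the list, 8 were on (72.7%, beside 50.5% of all listed genes).

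Every listed gene of RNA interference and of immune signalling was on, beside 50.5% of all listed genes. These lists are short and were chosen with earlier results of these data known. Of the 9 RNA interference genes, AGO2, the slicer that loads small interfering RNAs, had 130.1, 139.6 and 140.6 FPKM, and AGO1, which loads microRNAs, had 69.8, 78.9 and 78.7 FPKM. Both were lowest in replicate 1. Dcr-2, which cuts double-stranded RNA, averaged 34.7 ± 0.491 FPKM and its partner r2d2 had 24.8, 26.9 and 25.6 FPKM.

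All 20 listed genes of the Imd and Toll pathways were on. Kenny (key), a subunit of the kinase complex that activates Relish, was highest at 95.4, 93.8 and 95.3 FPKM. Spz, the Toll ligand, averaged 65.6 ± 3.58 FPKM, GNBP1, a pattern-recognition protein, 45.7 ± 0.425 FPKM, and the Toll adaptor tub 41.6 ± 1.44 FPKM. The effectors of these pathways held little of the RNA: the peptide class with the lysozymes had 0.0105% of total FPKM and 0.00237% of fragments. Of 14 antimicrobial peptide genes 6 were on (42.9%), near the 50.5% of all listed genes. The cecropins CecC, CecB and CecA1 led with 31.8 ± 1.35, 16.3 ± 2.31 and 14.5 ± 1.06 FPKM. AttC, Mtk and Def were listed at 0.

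Most duplicated housekeeping genes used 1 copy. In 22 sets of duplicated genes, 17 had at least 95% of the set's FPKM from 1 member, and 14 had at least 99%. These sets were chosen with earlier results in view, and their members are named after their values were seen. RpS5a, the general form, was at 4284 ± 183 FPKM and RpS5b, the gonad form, at 14.4 ± 0.162 FPKM. Ef1alpha48D held 99.996% of its set, and Cyt-c-p, the somatic cytochrome c, stood at 566.4 ± 19.5 FPKM against 0.0150 FPKM for the testis form Cyt-c-d. The low member of the elongation factor set was Ef1alpha100E, a form of muscle and nerve, at 0.430 FPKM.

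Some sets were shared. Act5C made 62.9% of actin FPKM and Act42A (1158 ± 19.5 FPKM), the other cytoplasmic actin, most of the rest, while 4 muscle actins stayed below 0.25 FPKM. BetaTub56D made 85.7% of beta tubulin, with betaTub60D at 187.5 ± 4.49 FPKM. RpS14a made 74.8% of its pair, RpL34b 81.4% and His3.3B 78.6%. The split within sets of near-identical copies is uncertain, since the sources used here do not say how shared reads were counted.

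Large gene families of sensory and organ function were nearly silent. Of 60 odorant receptor genes 3 were on, and of 62 gustatory receptors 3. No gene was on among 70 cuticular protein genes, 23 Osiris genes and 16 Jonah digestive proteases. The same held for 46 genes taken as accessory gland genes by the symbols Acp and Sfp. All 7 Enhancer of split genes, which Notch signalling switches on, were off. Of 21 glutathione transferase genes 16 were on (76.2%), and of 81 cytochrome P450 genes 34 (42.0%), beside 50.5% of all listed genes, so the P450 share was near that of all genes. GstD1, a detoxification enzyme, led the first family at 385.4 ± 9.33 FPKM and Cyp9c1 the second at 160.3 ± 3.69 FPKM. Ir7g, of the ionotropic receptor family, was the highest sensory receptor gene at 28.8, 29.1 and 29.3 FPKM. Family members are named after their values were seen.

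Genes listed as noncoding RNAs held 0.571% ± 0.00250 of total FPKM, with 62 of 438 genes on, beside 50.5% of all listed genes. The highest was CR40469, on the X, at 1133, 1035 and 1059 FPKM. CR42862 on 3L had 498.9, 524.8 and 520.8 FPKM, and its span overlaps CG33229. CR43264 on the X had 328.0, 379.3 and 357.7 FPKM. The heat-shock RNA Hsromega averaged 106.9 ± 2.76 FPKM, and Uhg3 and Uhg2, hosts of small nucleolar RNAs, averaged 105.9 ± 7.97 and 95.2 ± 5.20 FPKM. RoX2 averaged 263.1 ± 2.55 FPKM, just below CR18854 at 291.1 ± 9.20 FPKM.

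Many abundant genes carry only a number in the files. Of 7761 genes listed by a CG number 3374 were on, beside 7180 of all 14210 listed genes (50.5%). Of the genes listed by a CG number, 1717 have a name in the gene name table. CG17737, there named eIF1, a factor of start-codon choice, was the highest at 1378, 1443 and 1528 FPKM. CG15098 had 1239.7, 1346 and 1449 FPKM, CG7224 (Sirup) averaged 866.8 ± 19.7 FPKM and CG34200 848.4 ± 21.2 FPKM. CG15098 and CG34200 are named by number there too.

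The libraries differed little for most genes. Among genes that were on, the median coefficient of variation over the 3 libraries was 4.76%, beside a median counting error of 3.24%. It was 11.3% for genes from 1 to under 5 FPKM, where the counting error was 10.2%. It was 2.81% for genes from 100 to under 1000 FPKM and 3.03% for those at or above 1000 FPKM, where the counting error was 1.22% and 0.471%. The median spread was thus above the median counting error in each of these ranges, and by a larger factor in abundant genes. A median of spreads from 3 values each tends to understate the true spread. The excess over counting error may therefore be larger than these values show. With only 3 values per gene, a single coefficient of variation is imprecise.

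Among 5395 genes that averaged 10 FPKM or more, 298 had a coefficient of variation over 10%. Replicate 2 was highest in 134 of them, replicate 3 in 91 and replicate 1 in 73, and replicate 1 was lowest in 175. Among genes averaging 100 FPKM or more, the 2 collagen chains had the highest coefficients of variation. Cg25C was at 250.5, 404.8 and 310.4 FPKM, a coefficient of variation of 24.2%, with a counting error of 0.451%. Vkg was at 208.7, 310.4 and 237.3 FPKM. Both chains were highest in replicate 2 and lowest in replicate 1. The next after them were Atg8a, an autophagy gene, at 158.6, 203.7 and 214.3 FPKM, and sprouty (sty), a growth factor antagonist, at 349.1, 447.9 and 446.0 FPKM, both lowest in replicate 1. Vkg, Atg8a and sty were named after their values were seen.

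Other variable genes were low or overlapping. The small RNA snmRNA:128, which lies within Msp-300, was at 66.7, 94.6 and 23.4 FPKM with a counting error of 39.3%. CG42245, which overlaps MEP-1, was at 9.63, 20.1 and 10.6 FPKM. Nocte (nocte), a circadian temperature gene, was at 17.9, 28.5 and 21.6 FPKM and again highest in replicate 2. At the other end ATPsyn-gamma, a subunit of the ATP synthase, was at 576.7, 576.8 and 577.1 FPKM, and pgant5, a glycosyltransferase, at 75.2 FPKM in each library. Their coefficients of variation, 0.0397% and 0.0343%, were below their counting errors of 0.855% and 1.17%.

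Of 10 groups of genes by exon length, the longest had the largest median deviations in replicates 1 and 2, and the shortest had the largest in replicate 3. For genes that averaged 10 FPKM or more, exon length was known for 94.8% from the Ensembl annotation. In that group, with a median of 7439 nt, the median gene deviated from its own mean by -0.049 in replicate 1, 0.048 in replicate 2 and 0.0033 in replicate 3 on the log2 scale. The next longest group, with a median of 4724.5 nt, deviated by only -0.015, 0.0098 and 0.011. The large deviations of replicates 1 and 2 were thus confined to the longest group. In the shortest group, with a median of 674.5 nt, the same values were 0.011, 0.0097 and -0.022. From there replicate 3 rose with length, to 0.011 in the group with a median of 2853 nt. Replicate 1 was above 0 up to the group with a median of 2332 nt and below 0 in the longer groups. The part of length in the spread of the collagen genes and of RpL41 was not tested.

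**Figure D5:**
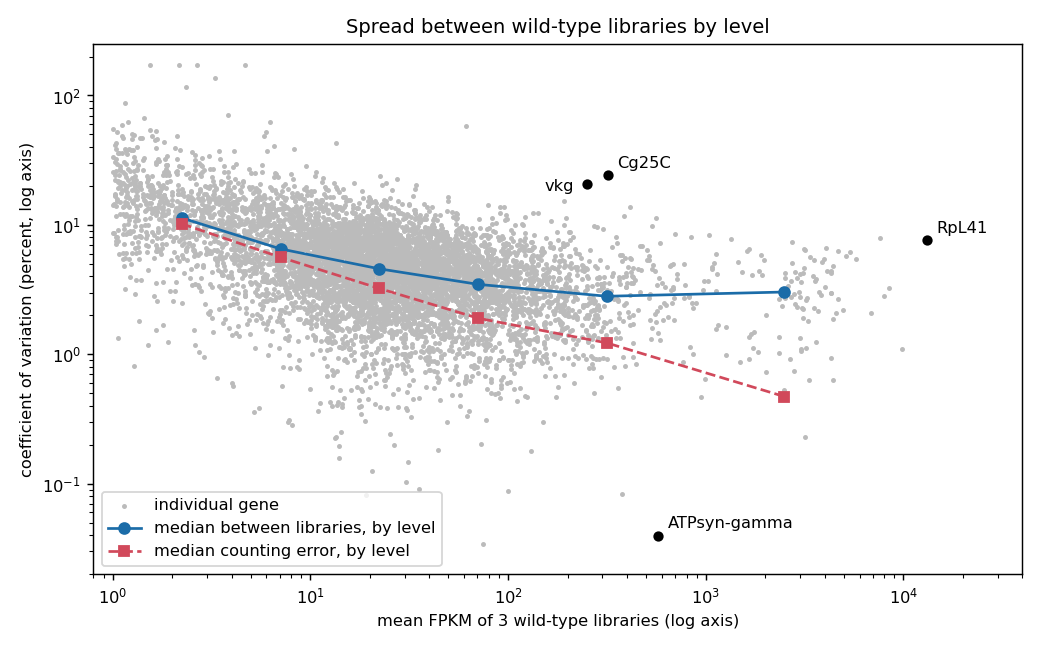
Coefficient of variation over the 3 wild-type libraries (percent, log axis) against mean FPKM (log axis) for each gene that was on. The blue line is the median by level, from 11.3% at 1 to 5 FPKM to 3.03% at or above 1000 FPKM, and the red dashed line is the median counting error. Cg25C at 24.2% lies far above the line and ATPsyn-gamma far below it.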

How the data were processed

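Per the file headers, the authors' FPKM tables have the layout that Cufflinks writes, 1 table per wild-type library, and list for each gene the FPKM, its lower and upper bound and a status. The authors' deposited comparison table, whose file header is that of DESeq output, gave 1 mean normalised count (a signal per gene) for the wild-type group over 11643 genes; it was used only to set beside FPKM. The submitters' processing notes list DESeq 1.10.1, HTSeq 0.6.1p1, Cufflinks 1.3.0, TopHat 1.4.1 and BWA 0.6.1 and say nothing of their roles. The sources used here do not name the genome build, the annotation or the strand setting.

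Fragments were recovered by dividing 2 times the FPKM by the upper bound minus the FPKM, and squaring the result. In genes with 1 transcript, 92.7% to 93.3% of recovered values under 30 lay within 0.02 of a whole number. These fragments cover counting error only, and for genes with several transcripts they are effective numbers.

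Genes were assigned to 21 function classes by symbol, current names coming from a gene name table that matched 13575 identifiers (95.5%). The spread is over 3 libraries of 1 group, so nothing was tested. The 26 marker lists, the classes and the members were chosen with earlier results of these data known. Genes were named by rule: the 25 most abundant with status OK in every library, the supplied cell markers, the top 4 of each marker list and up to 4 members at 0, the top 3 of each class, the 10 most and the 10 least variable genes at or above 10 FPKM, and the 10 most abundant noncoding and CG-numbered genes. Of the 263 genes this gave, with the most abundant genes outside the ribosomal class, 72 overlap another listed gene. Over all listed genes the share that overlap another is 37.1%. Other genes in the text were named after their values were seen. Alternatives were other levels for on, fragment weights, status and level filters, a pseudocount of 0.1 in place of 1, median-ratio scaling and leaving out each library. The recovery of fragments and of the spread was also run on simulated data. Their intervals were built with the same formula, so the simulation cannot show that the formula holds for the authors' intervals. Python 3.11.15, pandas 2.3.3, numpy 2.4.6 and matplotlib 3.10.9 were used.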

Additional observations from a re-analysis of the deposited data

How the results depend on the processing

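The count of genes on kept within 1.5 times at 0.5 FPKM (7545), at 5 FPKM (6244), in every library (7076) and without each library (7171 to 7184). Markers on were 139 of 276, and 146 at 0.5 FPKM, 113 at 5 FPKM and 138 to 139 without each library. At 5 FPKM the germline list had 1 gene on, antimicrobial peptides 3, glia, eye and segmentation 1 each, and testis and trachea 0, while at 0.5 FPKM and without replicate 3 the gut list had 1. The ribosomal share depended on the weight, at 18.4% of fragments and, in an alternative chosen after seeing the data, 18.2% of the authors' mean normalised counts. The share of the 25 most abundant genes was likewise 9.46% of fragments. Without each library these shares were 42.4% to 43.2% and 20.56% to 21.01%. The X minus autosome difference of medians was -0.33 at a mean of at least 5 FPKM, 1.27 with no filter on level, and -0.40 to -0.38 without each library. The median coefficient of variation was 4.32% at a mean of at least 5 FPKM and 3.60% to 4.22% over pairs of libraries, where fewer libraries enter. No paired analysis was possible because the values describe 1 group and come from no test. Depth limits the low genes: from 1 to under 5 FPKM the counting error was 10.2%, and FPKM files give no floor for a gene at 0.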

Other observations

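The 2 deposited measures of the wild-type level could be set side by side for 6583 genes with at least 100 fragments or counts. The authors' mean normalised count lay within 10% of the recovered fragments in 6282 of them (95.4%), with a median log2 ratio of count over fragments of -0.043. The genes that departed were few. In 3 genes the count was more than 10-fold higher: RpS6 (48716 counts, 42.7 fragments), the isoleucyl-tRNA synthetase gene Aats-ile (30855 counts, 328.0 fragments) and ens, a microtubule-associated protein (8956 counts, 886.2 fragments). In 34 genes it was more than 10-fold lower, and 28 of those overlap another listed gene, beside 37.1% of all listed genes. The part of overlap in this was not tested. The largest of them by fragments were Pif1B (2.74 counts, 7573 fragments), sky (331.3 counts, 5785 fragments) and MEP-1 (229.6 counts, 5228 fragments). These genes were chosen after their values were seen, and which of the 2 measures is nearer to the RNA was not tested. CG42245, which overlaps MEP-1 and varied between libraries, had 5.75 counts and 1008 fragments.

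Heat shock genes, named after their values were seen, differed widely at rest. Hsp83, the HSP90 chaperone, averaged 571.6 ± 8.33 FPKM and the mitochondrial chaperone Hsp60 158.9 ± 6.89 FPKM. The small heat shock genes Hsp22, Hsp26 and Hsp23 averaged 264.5 ± 7.21, 217.0 ± 2.12 and 201.7 ± 2.85 FPKM. The inducible Hsp68 averaged 21.5 ± 0.128 FPKM and Hsp70Bb 9.78 ± 0.301 FPKM, with Hsp70Aa at 0.0927 FPKM. The near-identical Hsp70 copies share reads, so their split is uncertain.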
